A study of Mus musculus with 22 samples.

Results

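The genes described here are 35 genes of fatty acid oxidation and of the response to PPARa, named in a list, measured in mouse liver lacking the co-regulator Trim24. Of these, 34 had a probe set with 1 gene symbol and were followed among 18194 genes in all, and Acsl1 was not analysed here. The list was divided by the site of the protein into 16 mitochondrial enzymes and carriers, 11 peroxisomal proteins, the carnitine acetyltransferase Crat, which is found in more than 1 compartment, and 6 others, namely Ppara itself and its targets Pdk4, Fabp1, Vnn1, Angptl4 and Fgf21. Each gene was represented by the probe set with the highest mean log2(signal + 16) over the 22 arrays.

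Each array held RNA from the whole liver of 1 mouse. The younger mice, aged 5 weeks, were 4 wild-type (WT) animals, numbered 2, 44, 45 and 90, 4 Trim24-/- animals, numbered 1, 6, 8 and 37, and 4 Trim24-/- Rara+/- animals, numbered 54, 66, 73 and 82, which had also lost 1 allele of the retinoic acid receptor gene Rara. At 14 weeks there were 5 WT animals, here called A to E, and 5 Trim24-/- animals, here called F to J, in the order of their deposit. The animals came from intercrosses of mice heterozygous for both genes on a mixed C57BL/6 and 129/Sv background, the disruption of Trim24 was not limited to 1 cell type, and no group was pooled. Feeding state, hour of collection and sex are not given in the labels. Values are given per animal in the order above.

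PPARa, the product of Ppara, is a nuclear receptor that binds fatty acids, pairs with RXR and switches on genes of fatty acid transport and oxidation, most of all in the fasted liver. In mitochondria, fatty acids enter through the carnitine shuttle and are shortened to acetyl-CoA by dehydrogenases, hydratases and thiolases that pass electrons to the respiratory chain. Peroxisomes shorten very long and branched chains by a separate set of enzymes, which in rodents answers strongly to PPARa ligands.

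The deposited signals were linear and scaled, with a trimmed mean of 100.001 on every array, and the median signal was 12.6 to 16.1 at 5 weeks and 19.7 to 25.9 at 14 weeks. The probe sets for Trim24 and Rara did not check the genotypes. The log2 change of Trim24 in Trim24-/- against WT was 0.23 at 5 weeks and 0.43 at 14 weeks, neither below 0. In Trim24-/- Rara+/- it was 0.55 against WT. Rara in Trim24-/- Rara+/- was at 0.22 against Trim24-/- and 0.32 against WT, likewise not below 0. Xist read 948 to 2169 on the arrays at 5 weeks and 13.4 to 44.5 at 14 weeks, and Eif2s3y, a Y-linked gene, read 0.35 to 6.59 and 245 to 344, so the ages also differ in sex-linked transcripts and the part of each cannot be told apart. The number of arrays limits the precision. Liver is made of several cell types, and fewer hepatocytes and less RNA per hepatocyte cannot be told apart in these values.

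The first question was whether loss of Trim24 altered these genes at 5 weeks. In Trim24-/- liver 2 of the 34 genes passed the test, Ehhadh and Hsd17b4, both peroxisomal and both lower than in WT, against 0.599% of all genes passing in either direction and 0.126% passing as lower. Of the 34 genes, 33 had a lower mean than WT, the exception being Pdk4, whereas 52.1% of all genes did. The median log2 change was -0.16 for the mitochondrial genes, of which 16 of 16 were below 0, and -0.30 for the peroxisomal genes, of which 11 of 11 were below 0, beside -0.01 for all genes. At an unadjusted p under 0.05 there were 8 of 34 genes lower and 0 higher in the limma fit, against 4.73% and 6.11% of all genes. A difference of median between the compartments was not tested.

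These counts rested in part on 2 arrays. Without Trim24-/- animal 6 the number of genes below WT was 26 of 34, and the median log2 change was -0.09 for mitochondrial and -0.07 for peroxisomal genes. Without WT animal 90 it was 31 of 34, and the peroxisomal median was -0.45. Without both animals it was 32 of 34, and 0 genes passed the test, with 8 lower at an unadjusted p under 0.05.

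**Figure D1:**
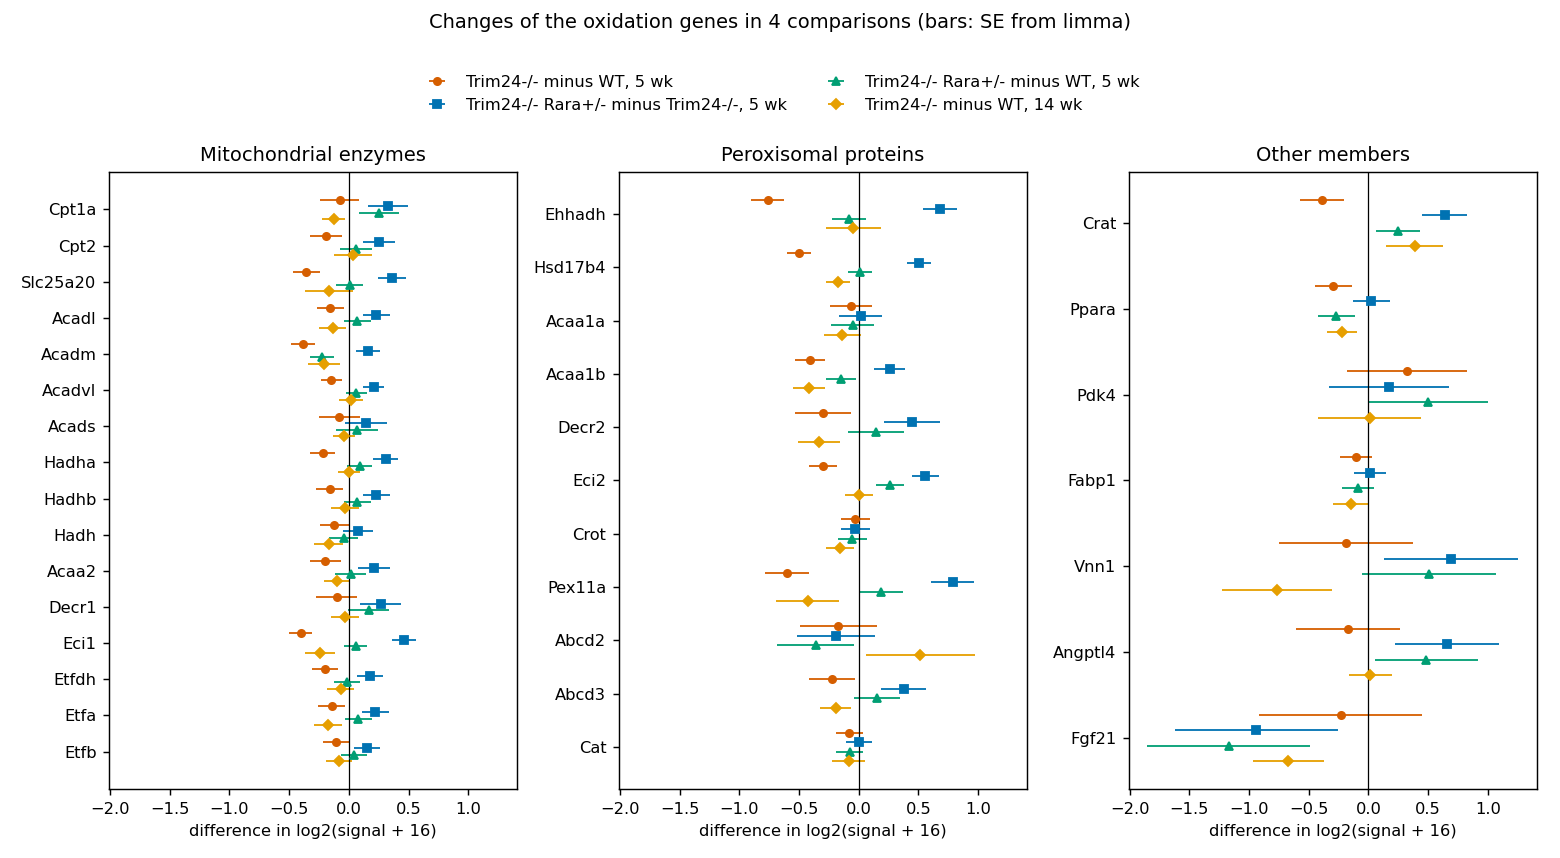
Difference in log2(signal + 16) on the horizontal axis for each of 34 genes in 4 comparisons, with bars for the standard error from limma; the panels hold mitochondrial, peroxisomal and other genes. At 5 weeks the circles for Trim24-/- against WT lie left of 0 for 33 of 34 genes, and the squares for Trim24-/- Rara+/- against Trim24-/- lie right of 0 for 31.

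Ehhadh encodes the peroxisomal L-bifunctional protein, which hydrates and then oxidises the acyl chain. Its signal was 3101, 4096, 2774 and 2916 in WT at 5 weeks and 2223, 1609, 1865 and 1831 in Trim24-/-. Every Trim24-/- animal was below every WT animal. The mean went from 3221 ± 598 (SD, n = 4) to 1882 ± 254 (SD, n = 4), and the log2 change was -0.76 ± 0.14 (SE), 1.70-fold lower, with an adjusted p of 0.0351 by limma. In Trim24-/- Rara+/- liver the signal was 2834, 2677, 3291 and 3262, above every Trim24-/- animal and within the WT range for 3 of 4 animals. The call of Ehhadh as lower was lost in 10 of 12 fits that left out 1 array: WT animal 2, 44 or 45, any 1 of the 4 Trim24-/- animals, or Trim24-/- Rara+/- animal 54, 66 or 82 (log2 change -0.85 to -0.64, adjusted p 0.0524 to 0.0914).

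Hsd17b4 encodes the D-bifunctional protein, which carries out the same steps on very long and branched chains. Its signal was 2965, 3520.2, 3719 and 2933 in WT and 2293, 2139, 2436 and 2389.8 in Trim24-/-, again with no overlap. The mean fell from 3284 ± 395.4 (SD, n = 4) to 2314 ± 131 (SD, n = 4), a log2 change of -0.50 ± 0.10 (SE) and 1.41-fold lower, with an adjusted p of 0.0499 by limma. The Trim24-/- Rara+/- livers read 3309.8, 3413, 3266 and 3193, above every Trim24-/- animal and inside the WT range. Its other probe set gave a log2 change of -0.33 in Trim24-/-, in the same direction. The call was lost in 11 of 12 fits that left out 1 array, all but the one without WT animal 90 (log2 change -0.54 to -0.43, adjusted p 0.0565 to 0.15 in those 11).

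**Figure D2:**
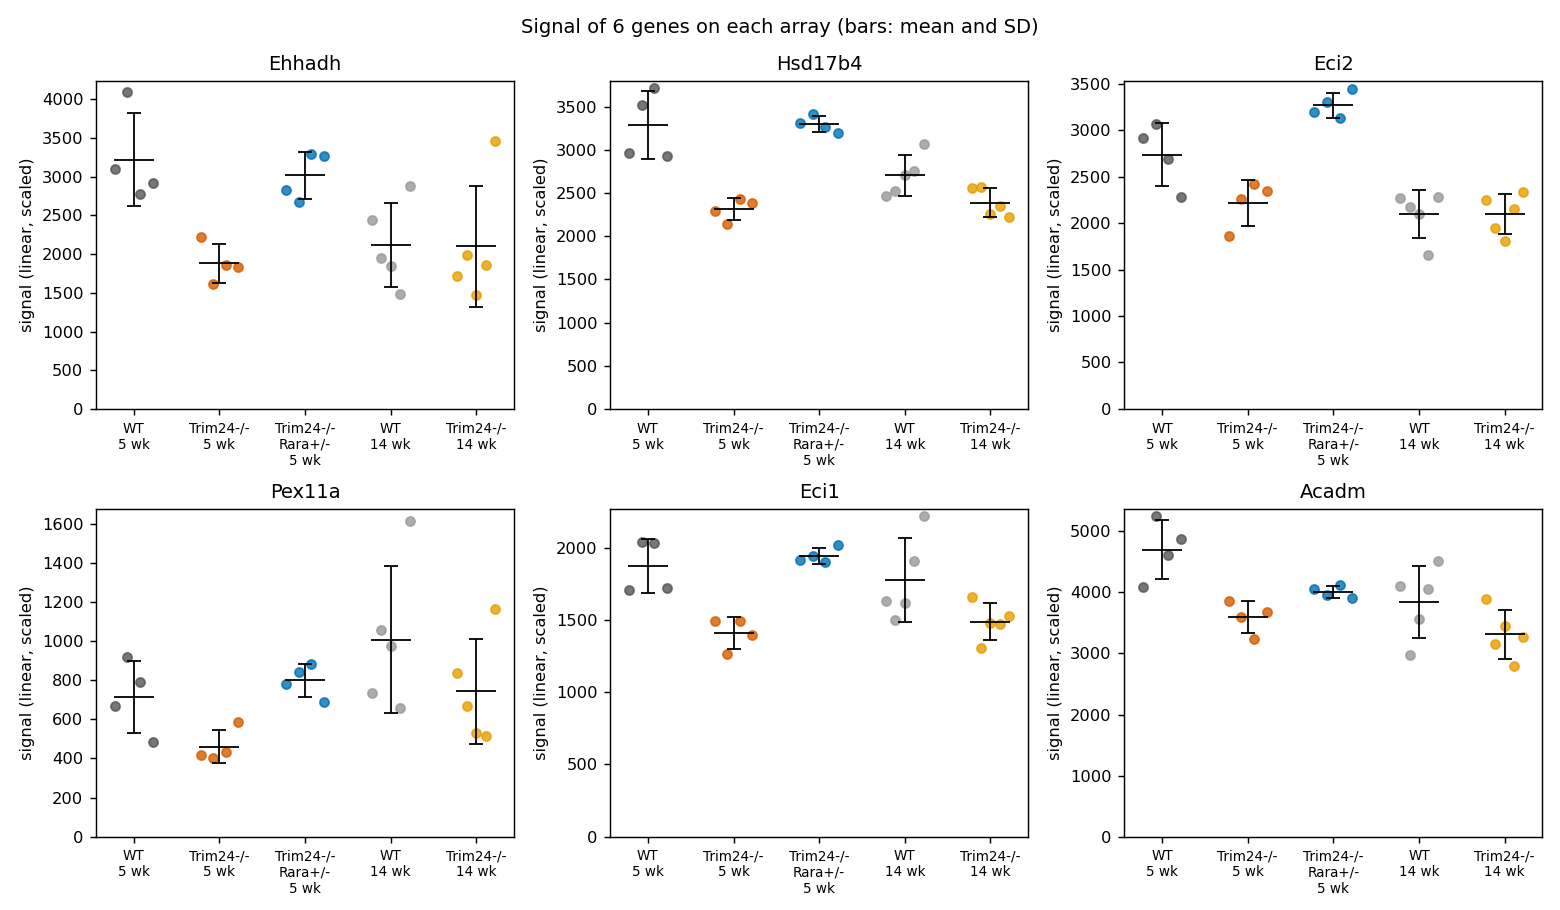
Signal on a linear scale that starts at 0 on each of the 22 arrays for 6 genes, by genotype and age; points are animals and bars are the mean and SD. For Ehhadh and Hsd17b4 the 4 Trim24-/- points at 5 weeks lie below all WT and all Trim24-/- Rara+/- points of that age.

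The other peroxisomal genes were lower in mean and did not pass the test. Pex11a, a membrane protein that drives peroxisome division, read 669, 919, 790.1 and 483 in WT and 418, 402, 433 and 584 in Trim24-/-, and the ranges overlapped through WT animal 90 and Trim24-/- animal 37. Its log2 change was -0.60 ± 0.18 (SE, adjusted p = 0.206 by limma), its other probe set gave -0.54, and without WT animal 90 it passed at an adjusted p of 0.0476 with a log2 change of -0.77. The Trim24-/- Rara+/- livers read 783, 844, 882 and 689, above each Trim24-/- animal.

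Acaa1b encodes a thiolase that makes the last cut in peroxisomal oxidation. It read 10473, 10531, 9786 and 9045 in WT and 9102, 5905, 8184 and 7129 in Trim24-/-, with Trim24-/- animal 1 just inside the WT range. The log2 change was -0.41 ± 0.13 (SE, adjusted p = 0.221 by limma), and 2 probe sets that the annotation assigns to Acaa1b and Acaa1a together gave -0.58 and -0.49. Acaa1b in Trim24-/- Rara+/- liver read 9106, 8804, 8459.5 and 9489, which overlapped both other groups. Acaa1a, a near-identical copy, had means of 140.4 ± 40.1 in WT, 129.9 ± 2.45 in Trim24-/- animals and 134 ± 29.8 in Trim24-/- Rara+/- (SD, n = 4 each), and cross-hybridisation between the copies was not tested.

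Eci2 encodes an isomerase that moves the unsaturated bond of a fatty acid so that oxidation can go on, and is grouped here with the peroxisomal genes. Its signal was 2917, 3064, 2688 and 2281 in WT, 1862, 2255, 2416 and 2349.9 in Trim24-/- animals and 3198, 3299, 3133 and 3439 in Trim24-/- Rara+/-. The Trim24-/- animals overlapped WT only through WT animal 90, and the Trim24-/- Rara+/- animals were above all others of that age. The log2 change in Trim24-/- against WT was -0.30 ± 0.12 (SE, adjusted p = 0.356 by limma).

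Decr2 encodes the peroxisomal dienoyl-CoA reductase, an auxiliary enzyme for unsaturated chains. It read 1095, 1348, 924 and 664 in WT, 896, 481, 929 and 966 in Trim24-/- animals and 1150.0, 1047, 968 and 1181 in Trim24-/- Rara+/-. Trim24-/- animal 6 lay far below its group, and WT and Trim24-/- overlapped. For the 4 peroxisomal genes not described so far, the mean in WT and in Trim24-/- differed by less than the SD of WT. They are the importers Abcd2 (281 ± 145 against 229.7 ± 67.8) and Abcd3 (4534 ± 1224 against 3835 ± 730.0), the carnitine octanoyltransferase Crot (3084 ± 373 against 3036 ± 477) and catalase, Cat (7197 ± 781 against 6829 ± 769), all as SD with n = 4.

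Of the mitochondrial genes 0 of 16 passed the test in Trim24-/- liver at 5 weeks by limma, and 3 were lower at an unadjusted p under 0.05, namely Eci1, Acadm and Slc25a20. Groups did not overlap, with Trim24-/- lower, for those 3 and for Acadvl, which with Ehhadh and Hsd17b4 makes 6 of 34 genes against 2.52% of all genes. Without WT animal 90 there were 5 mitochondrial genes lower at that level of p, against 6.24% of all genes. Fewer animals make a lack of overlap more frequent in every gene: on leaving out WT animal 90 it held for 15 of 34 genes and 5.61% of all genes, and on leaving out Trim24-/- animal 6 as well for 16 of 34 and 8.23%.

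Eci1, the mitochondrial counterpart of Eci2, read 1706, 2042, 2031 and 1721 in WT and 1489.8, 1262, 1494 and 1397 in Trim24-/-. In Trim24-/- Rara+/- it read 1917, 1942, 1898 and 2019.8, a narrow range above all Trim24-/- animals. The log2 change in Trim24-/- against WT was -0.40 ± 0.10 (SE, adjusted p = 0.115 by limma), the smallest p of the mitochondrial genes. With a pseudocount of 64 it passed, at an adjusted p of 0.0435, and in the other 27 alternatives it did not (adjusted p 0.0552 to 0.287).

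Acadm encodes the medium-chain acyl-CoA dehydrogenase, the enzyme lost in the commonest inherited defect of fatty acid oxidation. It read 4084, 5249, 4610.2 and 4869 in WT, 3861, 3591, 3238 and 3683 in Trim24-/- animals and 4061, 3951, 4124 and 3902 in Trim24-/- Rara+/-. WT was highest and Trim24-/- lowest, with WT animal 2 inside the range of Trim24-/- Rara+/-. The log2 change against WT was -0.38 ± 0.10 (SE, adjusted p = 0.138 by limma) in Trim24-/- and -0.22 ± 0.10 (SE, adjusted p = 0.657) in Trim24-/- Rara+/-.

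Entry into mitochondria runs through Cpt1a, Slc25a20 and Cpt2. Cpt1a, the regulated carnitine palmitoyltransferase of the outer membrane, read 2087, 2809, 2085 and 1628 in WT, 2254, 1571, 2109 and 2157 in Trim24-/- animals and 2678, 2829, 2236 and 2378 in Trim24-/- Rara+/-, and all 3 groups overlapped. Its 2 other probe sets gave log2 changes of 0.56 and -0.34 in Trim24-/- against WT, so the probe sets differed in sign. Slc25a20, the carrier that exchanges acylcarnitine for carnitine, was at 1980.2 ± 227 in WT and 1543 ± 169.5 in Trim24-/- (SD, n = 4 each), a log2 change of -0.36 ± 0.11 (SE, adjusted p = 0.243 by limma). Its other probe set gave -0.39. Cpt2, which returns the acyl group to CoA, was at 1333 ± 223 and 1154 ± 90.6 (SD, n = 4 each).

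Acadvl, the very-long-chain dehydrogenase of the inner membrane, had the smallest spread between animals of the 34 genes. It read 3367, 3240.2, 3109 and 3007 in WT, 2946, 2629, 2945 and 2965 in Trim24-/- animals and 3476, 3464, 3071 and 3282 in Trim24-/- Rara+/-, so that Trim24-/- lay below both other groups. The gap between the highest Trim24-/- animal and the lowest WT animal was small beside the spread within either group, and it did not pass the test.

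Hadha and Hadhb encode the 2 subunits of the trifunctional protein, which carries out the last steps for long chains. In RefSeq, on GRCm38.p6, the genes point away from each other on chromosome 5, and the 272 bases between their start sites (chr5:30154981-30155252, plus strand, Hadha to the left) are shown because they lie in front of both.
Hadha and Hadhb, between the start sites: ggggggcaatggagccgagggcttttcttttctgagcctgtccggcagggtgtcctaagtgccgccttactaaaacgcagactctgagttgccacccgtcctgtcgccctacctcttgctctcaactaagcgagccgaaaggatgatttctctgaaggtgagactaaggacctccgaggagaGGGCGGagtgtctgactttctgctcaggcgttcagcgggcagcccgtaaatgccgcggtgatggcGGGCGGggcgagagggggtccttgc
Capitals mark the 2 matches to GGGCGG, the letters of a GC box, searched on both strands after the values were seen. The same letters occur in 35.7% of 32851 RefSeq windows of 300 bases (250 before and 50 after a start site) and in 20 of the 28 such windows of the listed genes. CCAAT had 0 matches in the stretch and is in 37.4% of all windows.

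Hadha read 1887, 1913, 1946 and 1585 in WT, 1583, 1412, 1680.3 and 1605 in Trim24-/- animals and 2082, 2109, 1729 and 1883 in Trim24-/- Rara+/-. Hadhb read 2996, 2869, 3031 and 2422 in WT, 2726, 2106, 2805 and 2511 in Trim24-/- animals and 3122, 3028, 2811 and 2887 in Trim24-/- Rara+/-. For both subunits the lowest animals were WT animal 90 and Trim24-/- animal 6 in their groups, WT and Trim24-/- overlapped through animal 90, and every Trim24-/- Rara+/- animal was above every Trim24-/- animal.

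The other mitochondrial genes are the dehydrogenases Acadl, Acads and Hadh, the thiolase Acaa2, the reductase Decr1, and Etfa, Etfb and Etfdh, which hand electrons to the respiratory chain. For each of these 8 the ranges of WT and Trim24-/- overlapped at 5 weeks. Acaa2 was at 5835 ± 757 in WT, 5097 ± 705 in Trim24-/- animals and 5866 ± 437 in Trim24-/- Rara+/- (SD, n = 4 each), and Etfdh at 2284 ± 233, 1992 ± 228 and 2249 ± 61.6. The difference between the WT and Trim24-/- means was smaller than the SD of WT for Acaa2 and larger for Etfdh, and neither passed the test.

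Ppara itself read 921, 1263, 898 and 1164 in WT, 759.5, 952, 826 and 889 in Trim24-/- animals and 905, 666, 1094 and 862 in Trim24-/- Rara+/-. All 3 groups overlapped, with the highest values in WT animals 44 and 90. The log2 change against WT was -0.29 ± 0.16 (SE, adjusted p = 0.536 by limma) in Trim24-/- and -0.27 ± 0.16 (SE, adjusted p = 0.773) in Trim24-/- Rara+/-. Its 2 other probe sets gave -0.38 and -0.31 in Trim24-/- against WT.

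Fabp1 encodes the abundant fatty acid binding protein of hepatocytes, which carries ligands to PPARa. It was at 14940.2 ± 1958 in WT, 13911 ± 1840.2 in Trim24-/- animals and 14015 ± 1549 in Trim24-/- Rara+/- (SD, n = 4 each), closer together than the SD within a group. PPARa and RXR bind repeats of AGGTCA set 1 base apart. With AGGTCA, any base and AGGTCA again, on either strand, 0 of the 28 RefSeq windows found for 27 of the genes held it, and 0.0396% of 32851 windows did; with AGGNCA in place of both copies, 1 of 28 did, that of Fabp1, and 0.381% of all windows. It is shown as the sole member window with a match.
Fabp1, GRCm38.p6, chr6:71199772-71199864, plus strand: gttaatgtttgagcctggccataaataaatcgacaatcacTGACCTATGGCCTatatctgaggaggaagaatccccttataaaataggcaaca
Capitals mark the match, which reads on the opposite strand and lies 67 to 55 bases before the start site. It is a match of letters only, and binding was not measured.

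Fgf21 encodes a hormone that the fasted liver releases. It read 52.5, 32.1, 8.14 and 419 in WT, 22.1, 121, 39.9 and 45.9 in Trim24-/- animals and 9.25, 19.9, 25.4 and 19.8 in Trim24-/- Rara+/-. Most values were dim, WT animal 90 was far above all others, and the groups overlapped.

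Vnn1, a pantetheinase of the hepatocyte surface, read 2493, 2239, 1023 and 429 in WT, 1864, 349, 1879.8 and 1185 in Trim24-/- animals and 1686, 1635, 2080.3 and 1785 in Trim24-/- Rara+/-. The SD within WT and within Trim24-/- exceeded every difference between the means, and WT animal 90 and Trim24-/- animal 6 were the lowest of their groups.

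Pdk4, a kinase that turns off pyruvate dehydrogenase and so spares glucose, read 18.2, 75.2, 29.8 and 69.3 in WT, 66.4, 87.2, 33.8 and 55.2 in Trim24-/- animals and 33.0, 46.7, 271 and 39.4 in Trim24-/- Rara+/-. The groups overlapped, and animal 73 alone was above 100. Angptl4, an inhibitor of lipoprotein lipase, ranged from 406 to 1377 in WT, from 347 to 1397 in Trim24-/- and from 1086 to 1775 in Trim24-/- Rara+/-, and these overlapped as well. Crat, which forms acetylcarnitine, was at 139.5 ± 36.4 in WT and 102 ± 23.4 in Trim24-/- (SD, n = 4 each).

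The next question was whether the loss of 1 Rara allele in Trim24-/- liver altered these genes. Against Trim24-/-, 31 of 34 genes had a higher mean in Trim24-/- Rara+/- liver, whereas 52.7% of all genes had a lower one, with a median log2 change of 0.23 for the mitochondrial genes, of which 16 of 16 were above 0, and 0.38 for the peroxisomal genes, of which 9 of 11 were. The median of all genes was -0.01. By limma 0 of 34 genes passed the test, against 0.143% of all genes, and at an unadjusted p under 0.05 there were 9 higher and 0 lower, against 4.34% and 7.15% of all genes. Because this comparison and the previous one use the same Trim24-/- arrays, a low value in those arrays moves both in opposite directions.

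The genes nearest the threshold were mostly peroxisomal. For Hsd17b4 the log2 change was 0.51 ± 0.10 (SE, adjusted p = 0.0732 by limma), for Eci2 0.56 ± 0.12 (adjusted p = 0.0797) and for Ehhadh 0.68 ± 0.14 (adjusted p = 0.0797). For Eci1, the mitochondrial isomerase, it was 0.46 ± 0.10 (adjusted p = 0.0876), and for Pex11a 0.79 ± 0.18 (adjusted p = 0.0994). These 5 genes passed with pre-filtering to genes above 50 on every array of a group or with array weights, and 0 passed in any fit that left out 1 array. The remaining genes at an unadjusted p under 0.05 were Slc25a20 (0.36 ± 0.11), Hadha (0.31 ± 0.11), Acadvl (0.21 ± 0.09) and Crat (0.64 ± 0.19).

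For 15 of the 34 genes every Trim24-/- Rara+/- animal was above every Trim24-/- animal, against 3.33% of all genes. They were 8 mitochondrial genes (Slc25a20, Acadl, Acadm, Acadvl, Hadha, Hadhb, Eci1 and Etfdh), 6 peroxisomal genes (Ehhadh, Hsd17b4, Decr2, Eci2, Pex11a and Abcd3) and Crat. With 1 of the 8 arrays compared left out the count was 15 to 18, against 4.46% to 6.07% of all genes in the same arrays, while the peroxisomal median was 0.22 without Trim24-/- animal 6 and 14 genes were higher and 1 lower at an unadjusted p under 0.05 without WT animal 90, against 4.61% and 7.69% of all genes.

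Set against WT, 0 of 34 genes passed the test in Trim24-/- Rara+/- liver by limma, beside 0.0550% of all genes, and the median log2 change was 0.06, with 12 of 34 genes below 0 against 55.2% of all genes. Without WT animal 90 that median was -0.03, with 22 genes below 0, and without WT animal 44 there were 8 below 0. At an unadjusted p under 0.05 there were 1 higher, Eci2 (0.26 ± 0.12, SE), and 1 lower, Acadm, against 3.11% and 4.33% of all genes. Eci2 left that level without WT animal 45 or 90, Trim24-/- animal 6 or any 1 of the Trim24-/- Rara+/- animals, and Acadm without any 1 array other than those of WT animal 2 and Trim24-/- animals 1 and 8. Without WT animal 44 there were 3 higher, against 3.30% of all genes. Eci2 was also the only gene whose groups did not overlap, against 1.98% of all genes higher and 2.63% lower. For Ehhadh the log2 change was -0.08 ± 0.14 and for Hsd17b4 0.01 ± 0.10 (SE), both smaller than their errors in size. A p that misses the threshold does not show that the groups were alike.

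At 14 weeks 0 of 34 genes passed the test between Trim24-/- and WT by limma, against 0.242% of all genes, and 26 of 34 were below 0, against 49.7%. The median log2 change was -0.09 for the mitochondrial and -0.16 for the peroxisomal genes, and 0.00 for all genes. At an unadjusted p under 0.05 there were 2 lower and 0 higher, against 3.58% and 4.66% of all genes. Leaving out WT animal E gave a mitochondrial median of -0.02, and leaving out Trim24-/- animal H gave -0.06, with a peroxisomal median of -0.10.

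The 2 lower genes were Acaa1b and Fgf21. Acaa1b read 7460.1, 6991, 6865, 8927 and 7721 in WT and 6352, 5453, 4360.0, 6712 and 5716 in Trim24-/- at 14 weeks, with every Trim24-/- animal below every WT animal, against 0.715% of all genes. Its log2 change was -0.42 ± 0.13 (SE, adjusted p = 0.350 by limma), and the 2 probe sets shared with Acaa1a gave -0.51 and -0.42. Fgf21 read 62.5, 36.9, 37.2, 37.6 and 70.5 in WT and 29.8, 21.7, 3.34, 24.1 and 58.6 in Trim24-/-, with overlap and a log2 change of -0.67 ± 0.30 (SE, adjusted p = 0.596). The number of genes lower at an unadjusted p under 0.05 was 1 without WT animal E or Trim24-/- animal G or H, 3 without Trim24-/- animal F or J, and 4 without WT animal B, and 1 was higher without WT animal A.

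Of the genes that fell at 5 weeks, Ehhadh at 14 weeks read 2444, 1947, 1849, 1479.9 and 2877 in WT and 1719, 1987, 1466, 1860.3 and 3459 in Trim24-/-. The groups overlapped, with the highest values in WT animal E and Trim24-/- animal J, and the log2 change was -0.04 ± 0.23 (SE). Hsd17b4 read 2461, 2527, 2709.6, 2755 and 3069.9 in WT and 2559.8, 2566, 2255, 2345 and 2221 in Trim24-/-, with a log2 change of -0.18 ± 0.10 (SE) and 2 Trim24-/- animals inside the WT range. Its other probe set gave -0.06.

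Ppara at 14 weeks read 853, 1049, 863, 935 and 750.2 in WT and 873, 602, 775, 785 and 782 in Trim24-/-, a log2 change of -0.22 ± 0.13 (SE, adjusted p = 0.71 by limma). Its 2 other probe sets gave 0.20 and -0.26, so the probe sets differed in sign. Pex11a read 732, 1056, 977, 659 and 1615 in WT and 836, 669.5, 530.0, 516 and 1163 in Trim24-/-, and Eci1 1630.0, 1503, 1618, 1908 and 2222 in WT and 1659, 1303, 1481, 1473 and 1527 in Trim24-/-. In all 3 genes the ranges overlapped.

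Eci2 read 2273, 2174, 2101, 1657 and 2282 in WT and 2243, 1951, 1810.3, 2152 and 2329 in Trim24-/- at 14 weeks, and Decr2 1433, 1391, 1783, 1634 and 2042 in WT and 1642, 1127, 1027, 1767 and 1097 in Trim24-/-. Acadm read 4098, 2969, 3558, 4057 and 4514 in WT and 3895, 3153, 3452, 2796 and 3267 in Trim24-/-, and Cpt1a 2538, 2264, 2302, 2604 and 2344 in WT and 2343, 2054, 1975, 2277 and 2386 in Trim24-/-. All of these overlapped, with the lowest Eci2 value in WT animal D.

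Among the genes of smallest and largest spread, Acadvl read 2557, 2108, 2250.2, 2375 and 2714 in WT and 2499, 2562, 2252, 2549 and 2273 in Trim24-/- at 14 weeks, and Hadha 1946, 1749, 1784, 1635 and 1719 in WT and 1885, 1739, 1710.2, 1667 and 1831 in Trim24-/-. Neither differed beyond the spread within a group. Vnn1 read 295, 513, 838, 385 and 1800.4 in WT and 467, 237, 187, 383 and 710.1 in Trim24-/-, and Pdk4 62.4, 30.4, 35.4, 15.9 and 43.1 in WT and 54.9, 19.1, 33.9, 4.69 and 128 in Trim24-/-, again with overlap.

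Whether the effect of Trim24 loss differed between ages was tested as an interaction over all 22 arrays. The ages also differed in Xist and Eif2s3y, so age and sex cannot be told apart in it. By limma 0 of 34 genes passed, against 0.0330% of all genes, and 3 were above 0 and 0 below 0 at an unadjusted p under 0.05, against 3.11% and 3.29% of all genes: Ehhadh (0.72 ± 0.29, SE), Hsd17b4 (0.32 ± 0.14) and Crat (0.78 ± 0.32), with adjusted p of 0.728, 0.769 and 0.741. A positive value means that the difference from WT was less negative, or more positive, at 14 weeks. The count was 0 without WT animal 44 of the 5-week group, 2 without WT animal 45 or D or Trim24-/- animal 1, 6 or J, 4 without WT animal A or Trim24-/- animal H, and 5 without WT animal 90.

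Genes of the same pathways outside the list were counted for comparison. In Trim24-/- against WT at 5 weeks, 0 of 23 other mitochondrial oxidation genes, 0 of 41 other peroxisomal genes and 0 of 5 ketogenesis genes passed by limma, with 4, 5 and 0 lower and 0, 0 and 1 higher at an unadjusted p under 0.05, and median log2 changes of -0.08, -0.07 and 0.24. Of all genes 0.126% passed as lower in this comparison, and 4.73% were lower and 6.11% higher at an unadjusted p under 0.05. A further list of 49 genes held PPARa targets together with partners and co-regulators of PPARa, such as Rxra, and other receptors. Of these 49 genes 2 fell and 0 rose, with 9 lower and 1 higher at an unadjusted p under 0.05 and a median of -0.12. The 2 were Cyp4a14, a hydroxylase of the fatty acid tail, at -0.82 ± 0.13 (SE, adjusted p = 0.0191 by limma), and Acot1, a cytosolic acyl-CoA thioesterase, at -1.65 ± 0.29 (adjusted p = 0.0271). Cyp4a14 no longer passed on leaving out WT animal 44 or 45 or Trim24-/- animal 8 (adjusted p 0.0514 to 0.0633), nor did Acot1 on leaving out any 1 of WT animals 44 and 45 and Trim24-/- animals 1 and 8 (0.0588 to 0.0970).

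The same 2 genes rose in Trim24-/- Rara+/- against Trim24-/-. The log2 change was 0.97 ± 0.13 (SE, adjusted p = 0.0226 by limma) for Cyp4a14 and 1.88 ± 0.29 (adjusted p = 0.0275) for Acot1. Of the 49 genes in the list of PPARa targets and partners, 13 were higher and 1 lower at an unadjusted p under 0.05. In that comparison 0 of the 23, 41 and 5 genes of the other lists passed, with 7, 6 and 0 higher and 1, 1 and 2 lower at an unadjusted p under 0.05. Of all genes 0.143% passed there, and 4.34% were higher and 7.15% lower at an unadjusted p under 0.05. The calls were lost without Trim24-/- animal 8 or Trim24-/- Rara+/- animal 54, 66 or 82 for Cyp4a14 (adjusted p 0.0645 to 0.121), and for Acot1 also without WT animal 45 or Trim24-/- animal 1 (0.0529 to 0.127). In Trim24-/- Rara+/- against WT and in Trim24-/- against WT at 14 weeks 0 of these 49 genes passed. At an unadjusted p under 0.05 there were 3 higher and 2 lower in the first, and 2 higher and 6 lower in the second. Of all genes 0.0550% and 0.242% passed in these comparisons. At the unadjusted level 3.11% were higher and 4.33% lower in the first, and 4.66% higher and 3.58% lower in the second.

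The members varied very unequally between animals of 1 group. The SD of log2(signal + 16), pooled over the 5 groups, was 0.91 for Vnn1, 0.91 for Fgf21 and 0.83 for Pdk4, each above at least 99.2% of the genes with a mean log2 level above 6, and 0.10 for Acadvl, 0.11 for Hadha and 0.11 for Hsd17b4, each above at most 2.9% of them. Fgf21 and Pdk4 themselves had a mean log2 level below 6, so they were ranked against brighter genes. For Fgf21 the SD was 1.78 in WT at 5 weeks and 0.30 to 0.78 in the other groups. Mitochondrial genes filled most of the lower end of this order. Hsd17b4, which fell at 5 weeks, was thus among the steadiest genes, whereas Ehhadh, at 0.32, was above 84.8% of those genes.

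**Figure D3:**
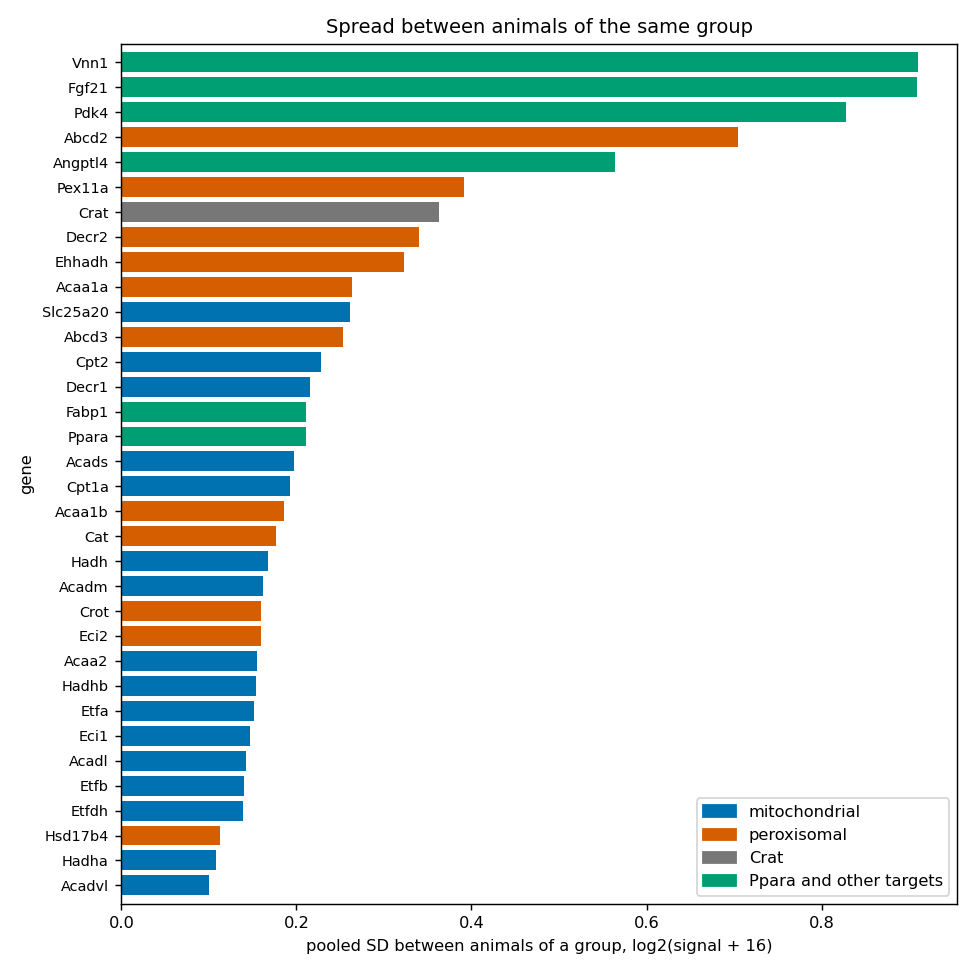
Pooled SD of log2(signal + 16) between animals of the same group for each of 34 genes, coloured by compartment; bars start at 0. The PPARa targets Vnn1, Fgf21 and Pdk4 head the list at 0.91, 0.91 and 0.83, and Acadvl ends it at 0.10.

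Single animals moved many of the genes together. WT animal 90 was the lowest of its group for 25 of 34 genes, while it was lowest for 32.3% of the 6222 genes with a mean signal above 100, and Trim24-/- animal 6 was lowest for 24 of 34, against 35.4%. WT animal 44 was the highest of its group for 21 genes, against 21.6%. At 14 weeks WT animal E was highest for 21 genes, against 31.6%, and Trim24-/- animal H was lowest for 18, against 15.3%.

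**Figure D4:**
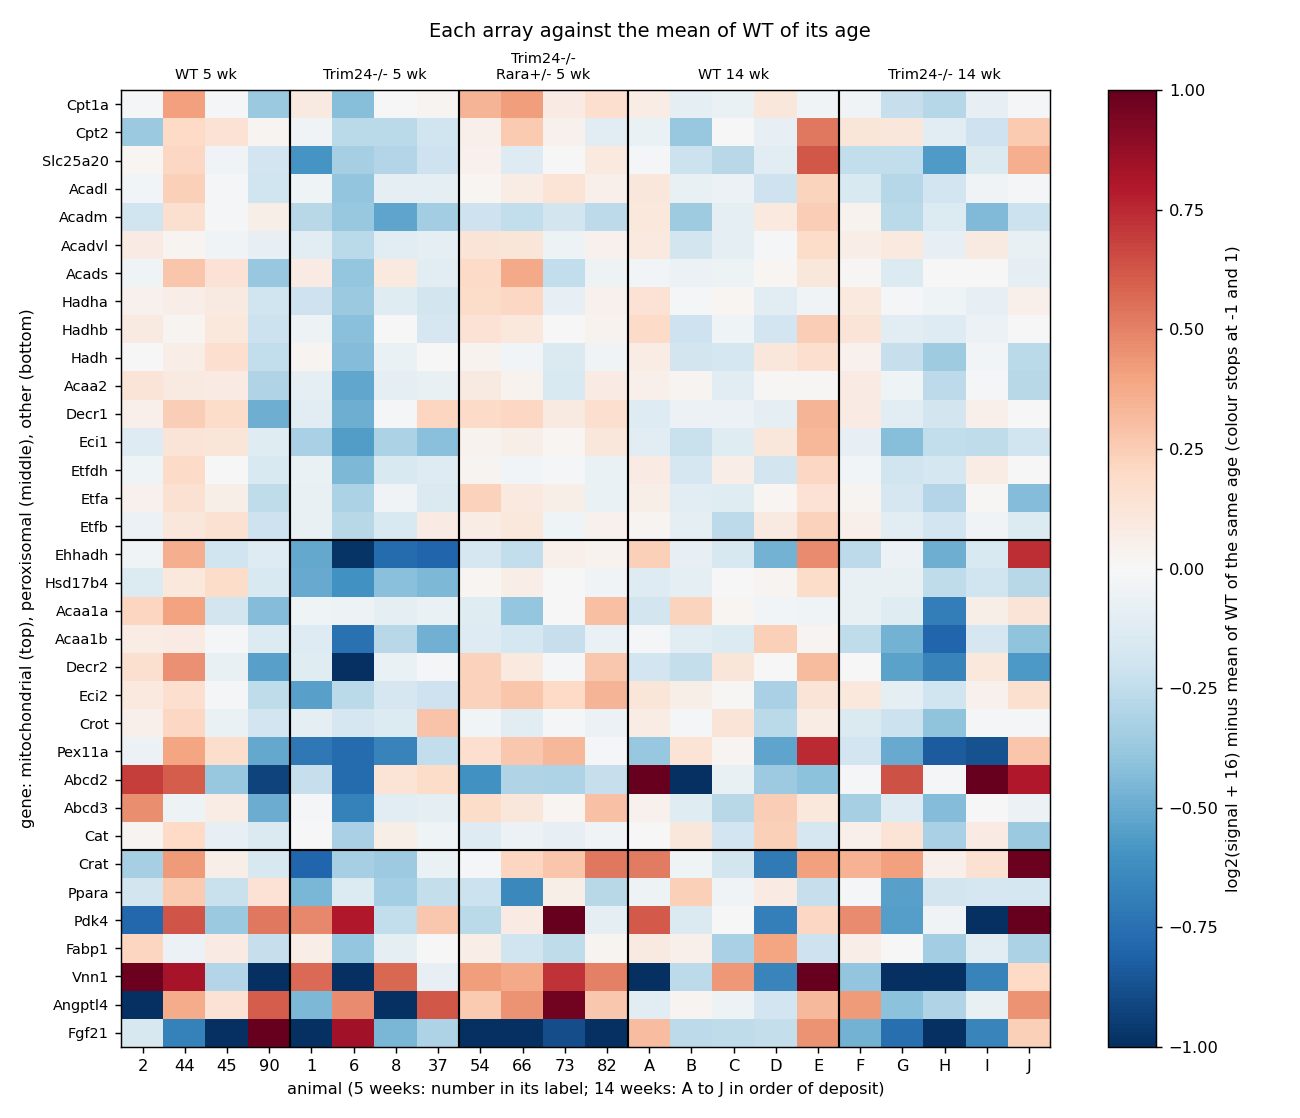
Colour gives log2(signal + 16) minus the mean of WT of the same age for 34 genes in rows and 22 animals in columns, and stops at -1 and 1. Blue runs down most of the column of Trim24-/- animal 6, and Ehhadh and Hsd17b4 are blue in all 4 Trim24-/- animals at 5 weeks.

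Markers of other cell types were read on the same arrays. In Trim24-/- against WT at 5 weeks 13 of 15 macrophage markers were above 0, with summed signals of 4834 to 9639 in WT and 6557 to 13061 in Trim24-/-, and WT animal 90 had the highest sum of WT. One of them passed, Mpeg1, at 1.69 ± 0.30 (SE, adjusted p = 0.0275 by limma). It did not pass without WT animal 2, 44 or 45 or Trim24-/- animal 1 or 8 (adjusted p 0.0543 to 0.105). Among the 15, 5 were higher and 1 lower at an unadjusted p under 0.05 by limma, against 6.11% and 4.73% of all genes. Cd163 went the other way from Mpeg1, at 147 to 248 in WT and 51.7 to 179 in Trim24-/-. Of the lymphocyte markers 8 of 8 were above 0, with sums of 43.9 to 81.4 in WT and 79.4 to 185 in Trim24-/-. These markers were dim. Their medians in WT were 2.69 to 14.3, below the pseudocount of 16, except for Ms4a1 at 17.2. By limma 0 of them passed the test, and so near the floor the count of signs does not establish a shift. Of the hepatocyte markers 7 of 8 were below 0, with a median log2 change of -0.12 and sums of 62006 to 72629 in WT and 55716 to 69832 in Trim24-/-.

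In Trim24-/- Rara+/- against WT, where 22 of the 34 oxidation genes were above 0, 14 of 15 macrophage markers were above 0 and 7 of 8 hepatocyte markers below 0, again with a median of -0.12 for the latter. The median log2 change of the macrophage markers against WT was 0.37 in Trim24-/- and 0.18 in Trim24-/- Rara+/-. The sums in Trim24-/- Rara+/- were 6483 to 10634 for macrophage and 54235 to 67752 for hepatocyte markers. Against Trim24-/-, 8 of 8 lymphocyte markers were below 0 and 11 of 15 macrophage markers were below 0. The lymphocyte markers were dim here too, with medians of 2.995 to 13.7 in Trim24-/- Rara+/-, and 0 of them passed the test by limma.

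Endothelial markers were below 0 for 9 of 10 in Trim24-/- against WT at 5 weeks and above 0 for 10 of 10 in Trim24-/- Rara+/- against either group, with 0 passing the test in each by limma and 0, 0 and 4 at an unadjusted p under 0.05. The 4 were higher in Trim24-/- Rara+/- than in Trim24-/-, against 4.34% of all genes. The endothelial sums were 1982 to 2745 in WT, 1642 to 2647 in Trim24-/- animals and 2591 to 2984 in Trim24-/- Rara+/-. Stellate cell markers were above 0 against WT for 7 of 10 in Trim24-/- and for 8 of 10 in Trim24-/- Rara+/-. Their sums were 3681 to 4491 in WT, 3682 to 7469 in Trim24-/- animals and 4502 to 4799 in Trim24-/- Rara+/-. The sum of 7469 was that of Trim24-/- animal 37, and the other Trim24-/- sums were 3682 to 4862.

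Among markers of hepatocytes around the central vein, 7 of 10 were below 0 in Trim24-/- at 5 weeks, with sums of 25844 to 32573 in WT and 20209.6 to 27945 in Trim24-/-, and 6 of 10 at 14 weeks, with sums of 18127 to 23564 and 14308 to 18735. One passed at both ages, Oat, which encodes ornithine aminotransferase. It fell by 1.23 ± 0.20 (SE, adjusted p = 0.0194 by limma) at 5 weeks and by 1.02 ± 0.11 (adjusted p = 0.00152) at 14 weeks on the log2 scale. At 5 weeks it did not pass without WT animal 44 or 45 or Trim24-/- animal 1 or 8 (adjusted p 0.0586 to 0.0763), and at 14 weeks it passed with any 1 array left out.

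At 14 weeks 15 of 15 macrophage markers were above 0 in Trim24-/-, with sums of 4326 to 5650 in WT and 5077 to 9519 in Trim24-/-. By limma 0 of them passed the test. Of these markers 9 were higher and 0 lower at an unadjusted p under 0.05, against 4.66% and 3.58% of all genes. Hepatocyte markers were below 0 for 8 of 8, with sums of 46343 to 69301 in WT and 45695 to 60047 in Trim24-/-. The part of any of these markers in the values of the oxidation genes was not tested.

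Hepatocyte markers other than Ass1 were high on every array, as the tissue label says. Ass1, which is among the markers counted above, read 18.7 to 284 over the 22 arrays. Over all 22 arrays the sum of 5 bile duct markers was 45.4 to 157, that of 4 fat markers 7.68 to 65.3 and that of 5 muscle markers 9.59 to 82.2. Single markers of these lists were above the pseudocount of 16 on some arrays, up to 81.3 for Epcam of the bile duct, 39.1 for Adipoq of fat and 40.9 for Ckm of muscle, while Cftr, Lep and Myh4 stayed below it on all arrays. Of the pancreas list Cpa1 was below 16 on all arrays, and Cela1 read 161 to 348 in WT and 368 to 760.2 in Trim24-/- at 5 weeks.

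Between the 2 WT ages the genes are given without a test, since the ages also differ in median signal and in Xist. Without overlap between ages 4 of 34 genes were lower at 14 weeks and 3 higher, against 13.9% and 8.92% of 6222 genes with a mean signal above 100. Etfdh was lower, at 2284 ± 233 (SD, n = 4) at 5 weeks and 1102 ± 131 (SD, n = 5) at 14 weeks, as were Acadvl, Hadhb and Acaa1b. Etfb was higher, at 3199 ± 362 and 4274 ± 539.8, as were Acaa1a and Decr2. Both shares, 11.8% and 8.82% of the 34, were near those of the bright genes.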

How the data were processed

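Liver RNA from 22 mice was hybridised to 1 array per animal after 2 rounds of amplification, per the labels' protocols. The authors deposited an intensity for each of 45101 probe sets, not log-transformed. The software that made it was not given in the labels used here. The equal trimmed means (2% cut at each end) show that arrays had been scaled. Of the probe sets, 34958 had 1 symbol in the platform annotation, 932 had several and 9211 were not listed; only the first named a gene, and where a gene had several of them the one of highest mean stood for it (18194 genes in all), as log2(signal + 16), which understates changes of dim genes. Testing used limma 3.58.1 (lmFit, eBayes; R 4.3.3) with no covariate, on 12 arrays at 5 weeks, 10 at 14 weeks and 22 for the interaction. A gene passed when its p, adjusted across the whole table by Benjamini-Hochberg, was under 0.05. The fits were tested on simulated data. The labels do not say whether animals share a litter. The p-values treat each animal as independent, which could not be checked. The 35 genes, all lists and the rules were chosen with earlier results of these data known. Values per array are given for Ppara, for listed genes that passed, for the 5 of smallest p in each genotype comparison, and for the 3 with the most and the 3 with the least spread; Hadhb was added beside Hadha after its values were seen. Pathway genes outside the list are named where they passed, up to 6 a comparison. Sequences are from RefSeq tables of GRCm38.p6. Alternatives changed the scaling, pseudocount, filter, probe set, variance model, array weights or the set of arrays, including leaving out single arrays.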

Additional observations from a re-analysis of the deposited data

Results flagged for a closer look

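In 11 of 170 sets of 4 or 5 arrays of 1 group, the highest or lowest animal stood apart on the log2 scale by Dixon's ratio of the gap to the range. Chance alone sets apart about 1 in 20 such sets. Trim24-/- animal 6 at 5 weeks was lowest for Acadl (1756), Acadvl (2629), Acaa2 (4041), Decr2 (481) and Abcd3 (2753). WT animal 90 at 5 weeks was lowest for Hadha (1585) and Acaa2 (4707). Pdk4 was highest in Trim24-/- Rara+/- animal 73 (271). At 14 weeks WT animal C was lowest for Acaa2 (4698), WT animal D was lowest for Eci2 (1657), and WT animal E was highest for Decr1 (2654).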

How the results depend on the processing

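No paired analysis was possible because the animal numbers are not shared between groups. The alternatives that averaged animals 54, 66 and 82, or 1 and 8, and the one that left out animals 90 and 6 together were chosen with earlier results of these arrays known. The 2 calls in Trim24-/- against WT at 5 weeks were near the threshold. Over 28 alternatives, 0 genes passed with quantile normalisation, median centring, a pseudocount of 1, every probe set tested, only the 2 groups fitted, animals 90 and 6 left out, or either set of animals averaged, and 1 passed with the mean of all probe sets, robust eBayes or all 22 arrays in 1 fit. With single arrays left out 0 to 3 passed: 3 without WT animal 90, 1 without Trim24-/- Rara+/- animal 73, and 0 without any other. The peroxisomal median then ran from -0.45 to -0.07. In Trim24-/- Rara+/- against Trim24-/-, where 0 passed, 3 passed with a pseudocount of 64, 4 with only genes above the median brightness, 5 with only genes above 50 on every array of a group, 1 with a mean-variance trend, 5 with array weights and 2 with all 22 arrays fitted, and the peroxisomal median was 0.22 without animals 90 and 6 and 0.22 to 0.44 with single arrays left out. In the other comparisons 0 passed in every alternative run. Among listed genes named with a log2 change, signs turned for 5 changes near 0. For Hsd17b4 in Trim24-/- Rara+/- against WT the log2 change was -0.0393 without animals 90 and 6, and -0.0393 to 0.0742 with single arrays left out, and for Ehhadh it was -0.1494 to 0.0372. For Ppara in Trim24-/- Rara+/- against Trim24-/- it was -0.0018 with quantile normalisation, -0.0103 with animals 1 and 8 averaged, and -0.0844 to 0.1499 with single arrays left out. For Ehhadh at 14 weeks single arrays gave -0.2388 to 0.0758, and for the interaction of Ppara -0.0127 to 0.1561. The cause was not tested.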
